A study of Mus musculus with 32 samples.

Results

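Lung mononuclear phagocytes were profiled for open chromatin by ATAC-seq, which inserts sequencing adapters into accessible DNA, and the distal sites shared by every cell type and strain are described here. A shared distal peak was a peak of the alveolar macrophage list of C57BL6J mice that overlapped a peak of each of the 7 other lists by 1 bp or more, and whose midpoint lay over 1 kb from every transcription start in the expression table. By this rule 5778 of the 32668 peaks of that list were shared distal peaks, or 17.7%. They were chosen on measured values, the presence of a peak in all 8 lists, so that their presence is a description and supports nothing. Messenger RNA was not used to choose them, and the tests below are on RNA.

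The samples were sorted from the lungs of untreated mice of 2 inbred strains, C57BL6J and DBA2J. The 4 cell types were alveolar macrophages (AM, which live in the airspaces), interstitial macrophages (IM, which live in the tissue between them), and the inflammatory (iMo) and the patrolling monocytes (pMo). The labels call iMo and pMo macrophages in one field and monocytes in another, and monocytes is used here. Each of the 8 groups of cell type and strain had 2 RNA-seq libraries and 1 deposited peak list made from 2 ATAC-seq libraries. The labels do not tell whether the libraries of a group came from different mice, so p-values measure only the spread between these libraries. No peak list has a replicate, so ranks of peaks come without a test.

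Summed levels of each type's own genes were highest in that type, and markers of other cells were also present. Alveolar macrophage genes summed to 5860 to 6700 TPM in the 4 AM libraries and to at most 2810 TPM in any other type. Interstitial macrophage genes were highest in IM, at 12900 to 23200 TPM. Inflammatory monocyte genes were highest in iMo, at 6650 to 10200 TPM, and patrolling monocyte genes in pMo, at 6580 to 9320 TPM. Neutrophil markers summed to 2870 to 4730 TPM in IM against 19.2 to 27.3 TPM in AM, and to at most 241 TPM in monocytes. B cell markers summed to 107 to 1230 TPM in pMo, 115 to 432 TPM in IM and 16.1 to 54.9 TPM in AM, and endothelial markers reached 333 TPM in IM. The part of these cells in the results was not tested. In bulk samples fewer cells of a type and less RNA per cell cannot be told apart. The ribosomal entries Rn45s and Mir6236 took 22.6% to 67.6% of the listed TPM, most in AM, where the TPM of other genes is lower by construction. The correlation of replicates was lowest in the C57BL6J IM, at r = 0.877 across genes, and some results are also given without those libraries.

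Regulatory DNA away from promoters, such as enhancers, is opened by transcription factors and can act on a promoter over a distance. In macrophages and monocytes the ETS factor PU.1, encoded by Spi1, opens much of this DNA together with C/EBP, AP-1, IRF and RUNX factors, and the type of macrophage is set by further factors that act on this base. Enhancers are known to differ more between cell types than promoters do, and open DNA far from a gene can also be an insulator or an unannotated start of transcription.

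The only sequence at hand was the RefSeq table of promoter windows (build GRCm38.p6, the build that mm10 names), which covers 250 bases before to 50 bases after each listed start. Of the 5778 shared distal peaks 421, or 7.29%, overlapped such a window. These peaks are more than 1 kb from the 1 start per gene that the expression table uses, but lie at another start, of the same gene, of an unlisted gene or of a noncoding RNA. Shown here are 8 of them, the bases before the start within the peak, chosen for a regulatory or immune gene as nearest gene and a match to 1 of the motifs searched. All are on the plus strand, and the capitals mark the motif match on either strand.
Pou2f1: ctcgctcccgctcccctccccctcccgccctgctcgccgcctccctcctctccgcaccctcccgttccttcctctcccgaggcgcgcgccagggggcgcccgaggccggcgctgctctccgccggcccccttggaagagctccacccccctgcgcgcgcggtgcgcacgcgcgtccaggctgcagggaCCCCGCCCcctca
Mitf: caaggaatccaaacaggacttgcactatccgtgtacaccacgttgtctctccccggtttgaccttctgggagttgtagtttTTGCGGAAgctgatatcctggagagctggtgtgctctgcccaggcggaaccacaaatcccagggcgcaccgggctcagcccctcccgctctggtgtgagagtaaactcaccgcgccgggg
Rara: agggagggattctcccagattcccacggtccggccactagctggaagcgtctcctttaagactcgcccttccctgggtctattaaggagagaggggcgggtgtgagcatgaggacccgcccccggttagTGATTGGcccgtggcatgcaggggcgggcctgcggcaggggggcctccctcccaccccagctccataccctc
Smarca2: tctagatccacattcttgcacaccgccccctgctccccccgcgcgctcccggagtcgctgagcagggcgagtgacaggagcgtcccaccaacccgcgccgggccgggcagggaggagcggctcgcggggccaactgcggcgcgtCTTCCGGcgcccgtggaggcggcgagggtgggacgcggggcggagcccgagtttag
Jun: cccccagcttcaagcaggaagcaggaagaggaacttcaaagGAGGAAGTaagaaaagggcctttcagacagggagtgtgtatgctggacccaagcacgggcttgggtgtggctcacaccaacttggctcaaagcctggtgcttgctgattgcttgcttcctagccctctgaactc
Bcl3: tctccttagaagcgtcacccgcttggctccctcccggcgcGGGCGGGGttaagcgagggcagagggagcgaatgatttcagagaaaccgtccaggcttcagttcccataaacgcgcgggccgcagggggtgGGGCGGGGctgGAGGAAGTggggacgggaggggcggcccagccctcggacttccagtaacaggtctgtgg
Nfkb1: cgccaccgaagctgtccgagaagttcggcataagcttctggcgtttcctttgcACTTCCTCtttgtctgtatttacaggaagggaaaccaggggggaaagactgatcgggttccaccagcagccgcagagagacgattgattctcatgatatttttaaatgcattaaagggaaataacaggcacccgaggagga
Trim30a: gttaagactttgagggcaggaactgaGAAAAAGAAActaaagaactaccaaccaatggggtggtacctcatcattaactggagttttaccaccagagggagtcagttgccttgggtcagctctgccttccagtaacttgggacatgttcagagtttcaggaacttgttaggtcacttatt

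The Pou2f1 peak, chr1:166002665-166002865, holds the KLF/SP motif CCCCGCCC, lies 67817 bp upstream of the listed start of this octamer-binding factor and 131 bp from another of its RefSeq starts. Its score was at a median percentile of 99.8 over the 8 lists. The Mitf peak, chr6:97806848-97807048, holds the C/EBP motif TTGCNNAA 110 bp from a further start of this regulator of lysosome genes, and had a median percentile of 95.6. In the Rara peak, chr11:98937464-98937664, at a second start of the retinoic acid receptor alpha gene, the NFY motif CCAATCA is marked. The Smarca2 peak, chr19:26604909-26605109, at a start of this chromatin remodelling ATPase, has the ETS motif CCGGAAG and a median percentile of 98.9. Its bases are shown from position 26604910.

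Among the peaks shown, which were chosen for a regulatory or immune nearest gene, those with the PU.1 motif GAGGAAGT lay at noncoding starts. The Jun peak, chr4:95193129-95193329, shown up to position 95193303, lies 141007 bp from the start of this AP-1 subunit gene and 75 bp from the start of Gm12708. The Bcl3 peak, chr7:19816341-19816541, lies 6314 bp from the gene of this nuclear IκB protein and holds 1 PU.1 match and 2 KLF/SP matches. The Nfkb1 peak, chr3:135608230-135608430, shown up to position 135608423, lies 83217 bp from the start of the gene for the p105 and p50 subunits of NF-κB. The Trim30a peak, chr7:104465173-104465373, shown from position 104465194, holds the IRF motif GAAANNGAAA at a start of this interferon-induced gene. A match is a description of the letters, not of a bound site.

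Sharing by all 8 lists was found for a smaller part of distal than of promoter peaks. Of 23030 distal peaks of the C57BL6J AM list 25.1% were in all 8 lists, against 69.4% of 9638 promoter peaks, which are those within 1 kb of a listed start. Only 5.5% of the distal peaks were in no other list, and 18.9% were in 1 other list. Of the distal peaks found in 7 lists, 1075 lacked only the IM list of DBA2J, which is the shortest list with 24429 peaks. A further 512 lacked only the DBA2J pMo list, and 26 only the C57BL6J IM list, which is the longest with 70013 peaks. Without the demand for a DBA2J IM peak 6853 peaks met the rule, and without that for a C57BL6J IM peak 5804. The sources used here do not give the score threshold behind each list.

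**Figure D1:**
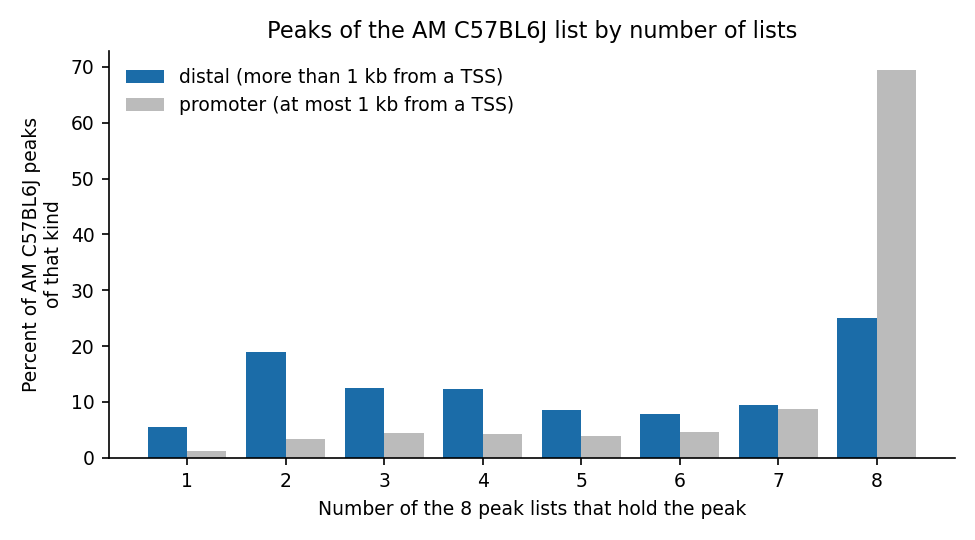
Peaks of the C57BL6J AM list by the number of the 8 lists that hold them (x axis), as percent of the distal peaks and of the promoter peaks (y axis). Promoter peaks stand mostly in all 8 lists (69.4%), whereas distal peaks are spread, with 25.1% in all 8 and 18.9% in 2.

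The median score of the shared distal peaks lay above the middle of every list, which is a description, since the rule asks for presence in each. The authors' score, whose scale is not given, put them at a median percentile of 70.7 in the C57BL6J AM list, where distal peaks found in no other list had a median percentile of 17.2. In the other lists the median percentile ran from 53.9 in DBA2J IM to 84.4 in C57BL6J IM, the shortest and the longest list. Promoter peaks of all 8 lists had medians of 64.9 in C57BL6J AM and 72.6 in DBA2J AM, where the shared distal peaks were higher. In every IM, iMo and pMo list these promoter peaks were higher than the shared distal peaks, with medians from 81.2 in DBA2J pMo to 93.3 in C57BL6J IM. The 8 overlapping peaks usually covered the same bases. The stretch common to all 8 had a median length of 156 bp of the 200 bp of a peak, and it was at least 100 bp in 5181 peaks (89.7%). In 51 peaks no base was common to all 8 lists.

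The distance of the shared distal peaks to the nearest listed start had a median of 17947 bp, with quartiles of 5934 and 43070 bp. Other distal peaks of the same list had nearly the same median, 17940 bp. In all, 494 (8.55%) lay at 1 to 2 kb, 2477 (42.9%) at 10 to 50 kb and 521 (9.02%) beyond 100 kb. They lay upstream of the nearest start in 48.3% of cases and within the span of a protein-coding RefSeq gene in 51.8%, against 59.3% of the other distal peaks. Just inside the 1 kb limit were peaks of Atp8a1 and Pinlyp at 1001 bp and of Sfr1 at 1003 bp, with scores of 36.8, 127.7 and 62.8. Just outside were peaks of 5430437J10Rik at 1000 bp, Lrrk1 at 998 bp and Plekho2 at 996 bp, with scores of 36.8, 62.8 and 113.6. Another shared distal peak lay within 5 kb of 1407 of them (24.4%), so neighbouring peaks are not independent sites.

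A start of transcription outside the expression table lay near many shared distal peaks. A RefSeq start was within 1 kb of 617 of them (10.7%), against 682 (3.95%) of the 17252 other distal peaks. The median over the lists of a peak's percentile was 78.4 in these 617 and 68.5 in the remaining 5161. The 617 were higher in both IM lists, both iMo lists and the DBA2J pMo list, with medians of 72.3 against 51.2 in DBA2J IM. They were lower in AM, at 68.4 against 70.7 in C57BL6J and 75.8 against 80.1 in DBA2J, and in C57BL6J pMo, at 81.0 against 83.0. They scored above the list median in all 8 lists in 46.2% of cases, against 28.9% of the others. Of the 70 shared distal peaks in the best-scored 10% of all 8 lists, 36 were among these 617. The E2f3 peak, chr13:29986150-29986350, is one of them, 187 bp from a RefSeq start of this cell-cycle transcription factor.

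Promoter windows under shared distal peaks had a GC content close to that of windows under shared promoter peaks. The 467 windows that overlap them had a median GC content of 62.3%, against 62.7% in the 5848 windows under promoter peaks of all 8 lists and 52.7% in all 32851 windows. At least 10 CpG dinucleotides stood in 79.2%, 93.8% and 43.5% of these windows, in the same order. The KLF/SP motif CCCCGCCC was in 36.6%, 37.6% and 17.6%. The ETS motif CCGGAAG was in 12.8%, 25.0% and 8.86%. The PU.1 motif GAGGAAGT was in 6.0%, 3.59% and 3.2%, and the AP-1 motif TGANTCA in 7.49%, 3.76% and 7.81%. In the 321 windows under distal peaks of the C57BL6J AM list that were not in all 8 lists, PU.1 was in 7.17%, AP-1 in 14.3%, ETS in 7.48% and KLF/SP in 17.8%. There C/EBP was in 10.9%, IRF in 3.12%, RUNX in 3.43% and NFY in 4.98%. In the 467 windows under shared distal peaks these were in 10.7%, 2.36%, 0.857% and 12.8%, in the same order. The shares over all windows were 10.8%, 3.44%, 1.78% and 7.82%. The shares of the other motifs searched are not printed. All motifs were searched on both strands, matches of different motifs may overlap, and no test was made of these shares.

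The scores of the shared distal peaks kept to the cell type in AM, by a small margin in iMo, and less so in IM and pMo. Over the 5778 peaks the rank correlation between the strains was 0.85 in AM, 0.76 in iMo, 0.64 in pMo and 0.63 in IM. Within a strain AM correlated with iMo at 0.12 in C57BL6J and 0.19 in DBA2J, with pMo at 0.38 and 0.20, and with IM at 0.42 and 0.26. The monocyte lists of DBA2J correlated at 0.74 with each other and at 0.71 and 0.69 with the IM list of that strain. The DBA2J IM and pMo lists were thus closer to other types of their strain than to their own type in C57BL6J. The DBA2J pMo list was also closer to C57BL6J iMo, at 0.7, than to C57BL6J pMo. DBA2J IM correlated with C57BL6J iMo at 0.6, near its 0.63 with C57BL6J IM. Within C57BL6J, IM correlated with iMo at 0.35 and with pMo at 0.36. These correlations are across peaks, which share library, depth and base composition within a list, and they carry no p-value.

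**Figure D2:**
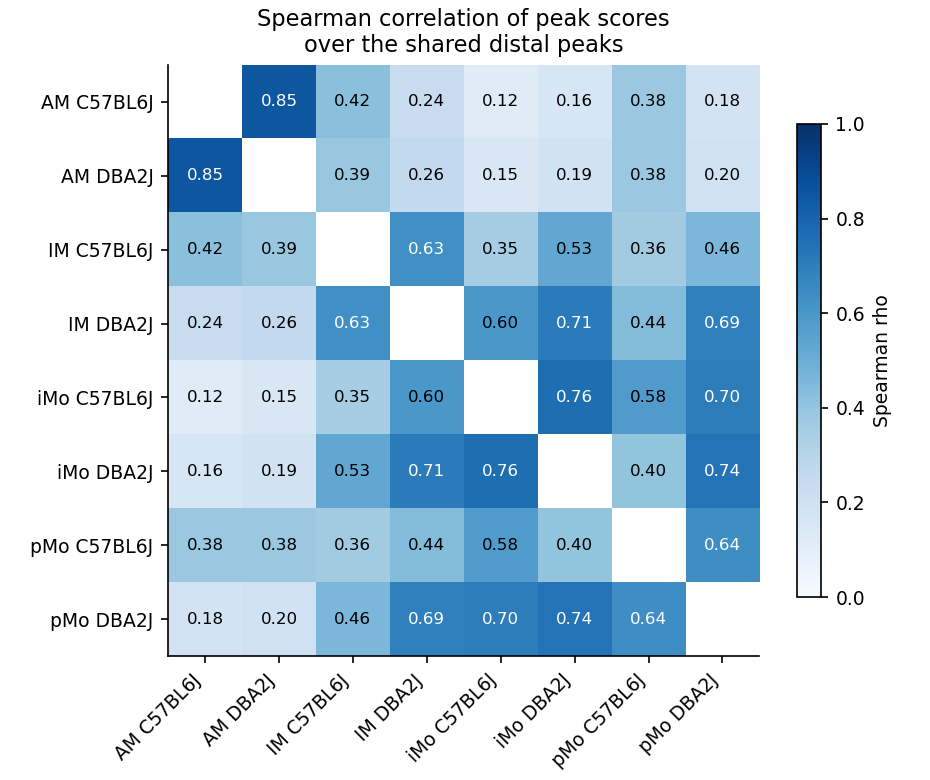
Spearman correlation of the authors' peak scores between each pair of the 8 lists (both axes), over the 5778 shared distal peaks. The darkest cell is AM of the 2 strains at 0.85, and the palest are AM against iMo, with 0.12 in C57BL6J.

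Most shared distal peaks changed rank between lists. Each peak was ranked among the 5778 in every list, from 0 at the lowest score to 100 at the highest, and the gap between its best and its worst rank had a median of 55.7 points. The gap was over 50 points in 3551 peaks (61.5%) and under 20 in 199. Both AM lists ranked a peak higher than both IM lists in 1838 cases (31.8%) and lower in 1736 (30.0%). When the 12471 peaks found in all 8 lists, promoters included, were ranked together, 33.7% were higher and 36.3% lower in AM. Both iMo lists ranked 1187 peaks (20.5%) higher and 1368 (23.7%) lower than both pMo lists, where the background was 19.6% and 20.7%. All 4 macrophage lists were above all 4 monocyte lists in 365 peaks (6.3%) and below in 358 (6.2%), with a background of 6.51% and 5.32%. The 4 DBA2J lists were above the 4 C57BL6J lists in 37 peaks (0.6%) and below in 46 (0.8%), with 0.401% and 0.425% in the background. Since the rule used these lists, nothing is read from these shares.

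The joint ranking and a split by RefSeq start are given as descriptions only, since the rule used these lists. In the joint ranking with the promoters 3188 of the 5778 (55.2%) stood higher in AM than in IM and 836 (14.5%) lower. Over all 12471 peaks the shares were 33.7% and 36.3%. Ranked among the 5778 alone, the distal peaks at a RefSeq start were lower in AM than in all other types in 31.6% and higher in 8.4%, and the remaining ones lower in 13.2% and higher in 20.7%. With the second score of the lists the counts among the 5778 were close to those above, at 1782 higher and 1711 lower in AM.

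Single peaks showed how far a site open in every list can differ in score. The Arg1 peak, chr10:24930290-24930490, 2920 bp upstream of the arginase gene, was ranked 87.4 and 93.1 in AM of C57BL6J and DBA2J. In the 6 other lists it was between 3.4 and 18.7. The reverse held at Slc4a7, a bicarbonate cotransporter gene, where the peak chr14:14702763-14702963 ranked 14.0 and 0.5 in AM and 96.0 to 99.3 elsewhere. At Rgs2, a regulator of G protein signalling, the peak 2621 bp upstream ranked 8.2 and 8.4 in AM and 74.9 to 90.3 in the other lists. These are peaks with the widest gaps between AM and the rest, and they were chosen for it.

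Between the monocytes the Lrrfip1 peak, chr1:91069675-91069875, in the gene of a nucleic acid sensor, ranked 91.8 and 74.1 in pMo and 0.8 and 10.2 in iMo. It was also high in AM, at 90.7 and 91.5. The Nr4a2 peak, 1799 bp from the start of this orphan nuclear receptor gene, ranked 83.6 and 87.2 in iMo and 50.6 and 49.9 in pMo. At Nlrp3, the sensor of an inflammasome, a peak 34 bp from a RefSeq start ranked 62.9 to 70.2 in the macrophages and 1.4 to 21.6 in the monocytes. The Abcc4 peak, in the gene of an exporter of cyclic nucleotides and prostaglandins, ranked 3.0 to 13.1 in the macrophages and 64.7 to 91.8 in the monocytes.

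Peaks near the chemokine receptor gene Ccr1 were among those that ranked apart between the strains. The peak chr9:123928738-123928938, 39854 bp downstream of the Ccr1 start, ranked 91.3 to 99.9 in the 4 DBA2J lists and 6.4 to 65.5 in the 4 C57BL6J lists. The peak chr9:123929093-123929293 ranked 85.7 to 99.7 in DBA2J and 0.1 to 51.3 in C57BL6J. A further peak of this cluster ranked 94.3 to 99.8 in DBA2J and 40.3 to 80.5 in C57BL6J, while the last, chr9:123924630-123924830, overlapped between the strains. The Glrx peak, in the glutaredoxin gene, ranked 70.5 to 91.4 in DBA2J and 24.5 to 47.0 in C57BL6J. In the other direction the Etv3 peak, 40671 bp from the start of this ETS repressor gene, ranked 8.7 to 29.8 in DBA2J and 74.2 to 98.8 in C57BL6J. The Glrx and Etv3 peaks and the Ccr1 peaks given with coordinates first and second were chosen for their gap between the lists. The further and the last Ccr1 peak are given because they have the same nearest gene.

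The steadiest peak was that of E2f3, which ranked 99.0 to 99.9 in all 8 lists, a gap of 0.8 points from the unrounded ranks. Peaks of Ypel5, with a gap of 1.8 points, and of Mrps27, with 3.1, followed. The highest median percentile of 100.0 was held by peaks in the ribosomal locus Rn45s, of which 6 were shared distal peaks, and by a peak on chromosome 2 at 1199520 bp from the start of Lrrc4c. Ribosomal RNA genes are repeated in the genome, and the rule left out no region for repeats or for high signal, on chromosome 2 or elsewhere. The lowest median percentiles were 10.7 at Susd1 and 11.9 at Dhx58, which encodes a sensor of viral RNA.

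**Figure D3:**
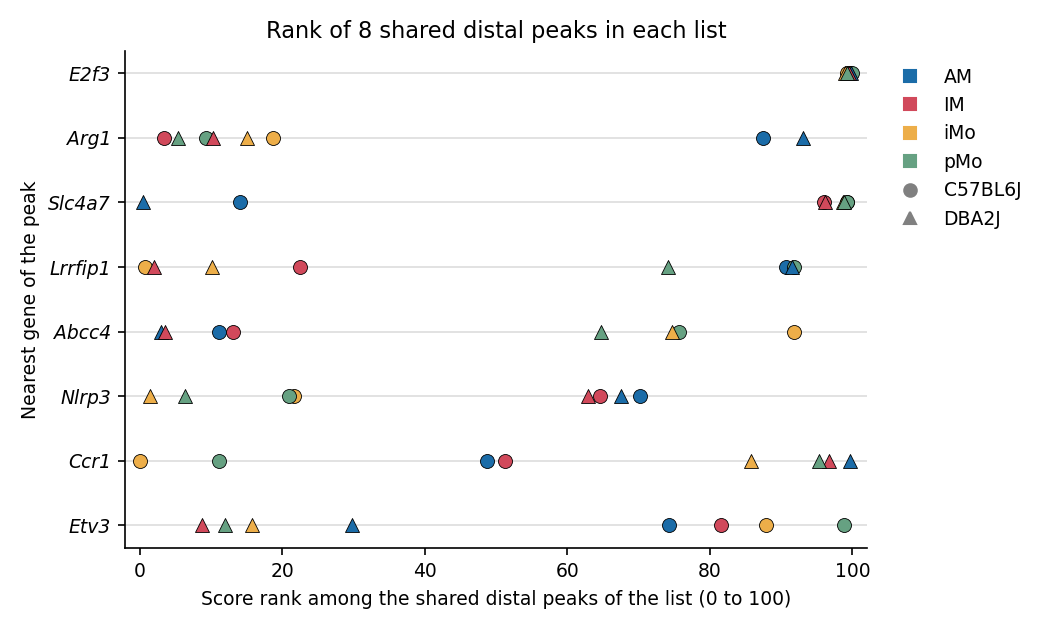
Rank of 8 shared distal peaks among the 5778 in each list (x axis, 0 is the lowest score and 100 the highest), by nearest gene (y axis), coloured by cell type, with circles for C57BL6J and triangles for DBA2J. E2f3 is at 99.0 or above in every list, Arg1 is high in AM alone, and at Ccr1 all DBA2J lists are above all C57BL6J lists.

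The nearest genes within 100 kb of the shared distal peaks were 3446, or 13.8% of the 24940 genes in the table. Most, 2339, were nearest to 1 peak, 688 to 2 and 419 to 3 or more. The long noncoding genes Gm19510 and A630001O12Rik had 9 peaks each, the most of all, followed by Irf2bp2, a corepressor of interferon regulatory factors, with 8. Rbms1, Pde4b and Papss1 had 7, and Klf6, Fli1 and Plek had 6. Genes were tested from an average of 1 TPM upwards across the libraries, which was reached by 2635 of the 3446 (76.5%), against 49.2% of all genes, and the other 811 were not tested. A promoter peak in all 8 lists was found for 1337 of the nearest genes (38.8%), against 24.4% of all genes.

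Genes of signal response and lineage control had the largest shares with a shared distal peak among the gene lists. Of 29 immediate early and AP-1 genes, which respond first to stimulation, 24 (82.8%) were nearest to 1 or more of 66 peaks, against 21.5% of all genes tested. Among 47 lineage transcription factors 32 (68.1%) were, and among 31 lysosome and phagocytosis genes 20 (64.5%). The phagocyte surface genes had 24 of 40 (60.0%) and the genes of NF-κB and Toll-like receptors 23 of 40 (57.5%). Actin, adhesion and migration genes had 18 of 33 (54.5%), and chemokine receptor and trafficking genes 12 of 22 (54.5%). Housekeeping genes, at 8 of 20 (40.0%), were also above the share of all genes tested. The counts were 10 of 31 (32.3%) for glycolysis and lipid metabolism and 6 of 20 (30.0%) for antigen presentation. Among genes that mark 1 of the types the counts were 11 of 23 (47.8%) for AM, 6 of 17 (35.3%) for pMo, 4 of 14 (28.6%) for iMo and 5 of 20 (25.0%) for IM. Interferon-stimulated genes, at 8 of 30 (26.7%), and genes of chromatin architecture, at 7 of 29 (24.1%), were near the share of all genes tested. Among markers of other cells 1 of 12 for neutrophils (8.3%), 1 of 10 for B cells (10.0%) and 2 of 14 for T and NK cells (14.3%) were nearest. The counts were 2 of 9 (22.2%) for endothelial, 3 of 9 (33.3%) for epithelial and 1 of 7 (14.3%) for fibroblast markers. No test was made of these shares.

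**Figure D4:**
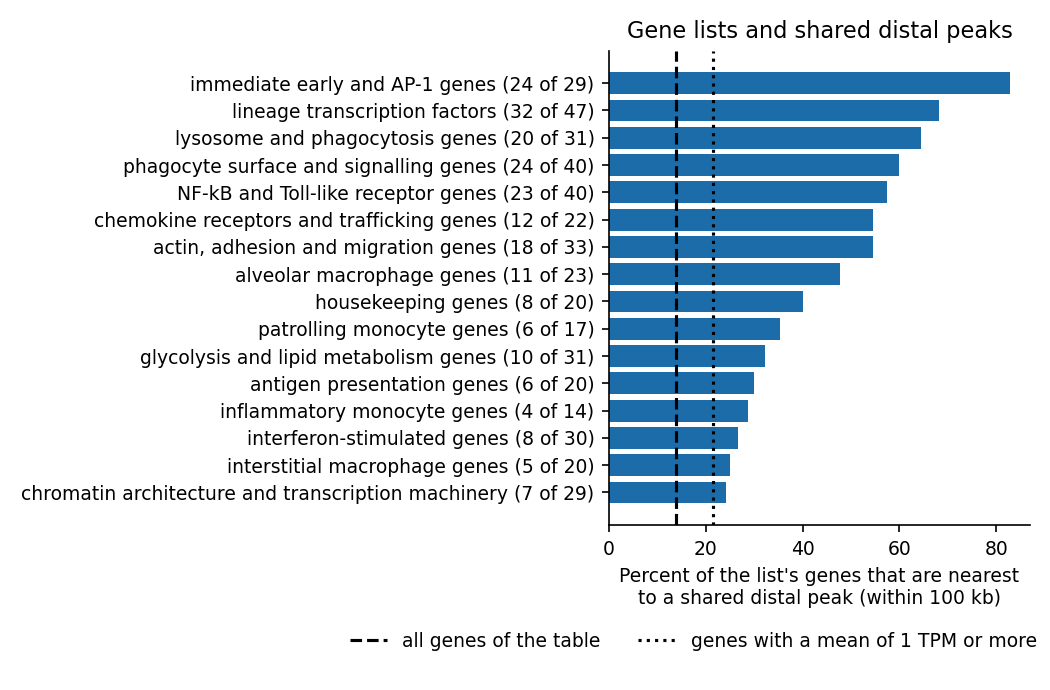
Percent of each list's genes that are nearest to a shared distal peak within 100 kb (x axis), by gene list (y axis), with the number of genes in parentheses. Immediate early genes reach 82.8% and chromatin architecture genes 24.1%, and the lines mark 13.8% for all genes of the table and 21.5% for genes of at least 1 TPM.

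Most nearest genes of shared distal peaks differed in RNA among the cell types, as did most of all genes tested. In limma on log2(TPM + 1), at an adjusted p under 0.05, 2354 of the 2635 nearest genes tested (89.3%) differed among the 4 cell types, against 82.7% of all 12277 genes tested. The nearest genes had higher RNA levels, with a median of 14.6 TPM against 9.48 TPM, and the part of this in the count was not tested. Of 1895 nearest genes that reached 10 TPM in a type, 139 (7.34%) were under 1 TPM in another, against 8.39% of all such genes. Among them 89 were under 1 TPM in AM (4.7%), 46 in iMo (2.43%), 31 in pMo (1.64%) and 11 in IM (0.58%), though their distal peak was in the lists of these types. The shares over all such genes were 4.92%, 3.57%, 2.63% and 0.973%, in the same order. Some nearest genes varied little. Tor4a, of the torsin ATPase family, lay between 114.1 and 145.4 TPM in all 16 libraries.

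Mmp9 and Cx3cr1 were nearest to peaks that were called in AM, while their RNA was all but absent there. Mmp9, a secreted gelatinase that neutrophils also store, was at 0, 0.411, 0.478 and 0.643 TPM in AM and at 456.1, 561.0, 383.0 and 282.9 TPM in IM. The groups did not overlap, and the log2 difference of AM from IM was -8.23 (SE 0.165, limma adjusted p = 9.08e-11). Mmp9 is among the neutrophil markers, whose sum in IM is given above, and the share of its IM level that comes from neutrophils was not tested. The receptor for fractalkine, Cx3cr1, was at 0.287, 0.2, 0.6 and 0.917 TPM in AM and at 160.1 to 221.5 TPM in IM. In monocytes it was at 220.2 to 287.4 TPM, and AM differed from IM by -6.97 (SE 0.133, adjusted p = 7.9e-11). Its nearest shared distal peak, 9478 bp downstream, ranked 60.6 and 78.0 in AM, within the range of 50.3 to 86.1 in the other lists.

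Between AM and IM 250 nearest genes (9.49%) were higher in AM and 1767 (67.1%) lower, against 9.19% and 61.1% of all genes tested. This split follows the scaling, since the median difference of all genes was -0.68 on the log2 scale, and after median-of-ratios scaling, which sets it to 0.06, 822 were above (31.2%) and 1003 below (38.1%), against 33.1% and 28.8% of all genes tested. Without Rn45s and Mir6236 531 were higher and 1295 lower, with a median of -0.259 over all genes, whose shares were not counted in this setting. Without both C57BL6J IM libraries, so that IM came from DBA2J alone, 275 were higher and 1650 lower. The shares of all genes were not counted there either. Maf, a transcription factor of tissue macrophages, was at 0.43 to 1.796 TPM in AM and at 282.2 to 727.9 TPM in IM (-7.50, adjusted p = 8.23e-10). Stab1 and Cd163, scavenger receptors, and C3ar1, the receptor of complement C3a, differed by -6.63, -6.62 and -6.80. Higher in AM was Siglecf, an AM surface lectin used in the sort, at 244.1, 234.1, 111.5 and 125.2 TPM against 27.64, 81.76, 8.625 and 9.128 TPM in IM. The groups did not overlap (log2 difference 2.95, SE 0.311, adjusted p = 1.03e-05), and since the sort used this protein the difference checks the labels and is no finding. Plet1, F7, which encodes coagulation factor VII, and Ch25h, which makes 25-hydroxycholesterol, differed by 3.28, 3.34 and 3.26.

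By gene list, 24 of the 32 nearest lineage factors fell in AM against IM and 5 rose, with a median of -1.58. After median-of-ratios scaling 23 fell and 8 rose, with a median of -0.77. Of 24 nearest immediate early genes 19 fell and 1 rose, with a median of -1.59, and when rescaled 12 fell and 3 rose, with a median of -0.74. Fos was at 240.5, 266.5, 191.3 and 128.0 TPM in AM and at 453.8 to 888.7 TPM in IM, without overlap, though its call was lost with median-of-ratios scaling (adjusted p = 0.0904 in limma). Junb, its partner in AP-1, and Zfp36, which destabilises cytokine mRNA, differed by -2.13 and -2.67. All 8 interferon-stimulated genes fell under both scalings, with a median of -2.54, or -1.93 when rescaled. Of 20 lysosome genes 8 were higher and 7 lower, with a median of 0.01 against -0.68 over all genes. Median-of-ratios scaling gave 14 above and 3 below, with a median of 0.91 against 0.06, so their split depends on the scaling. For the peaks shown above, Bcl3 differed by -2.56, Trim30a by -2.58, Pou2f1 by -1.18 and Nfkb1 by -1.12, each lower in AM.

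Between the monocytes 620 nearest genes (23.5%) were higher in iMo than in pMo and 263 (9.98%) lower, against 18.9% and 6.36% of all genes tested. After median-of-ratios scaling 463 (17.6%) were above and 488 (18.5%) below, against 12.7% each way of all genes tested. Without the ribosomal entries the counts were 335 and 555, with a median of -0.13 over all genes, whose shares were not counted in this setting. The direction of the balance is thus set by the scaling. Ly6c2, the gene of the Ly6C surface antigen used in the sort, was at 562.2, 621.0, 417.3 and 285.1 TPM in iMo and at 10.61, 5.435, 8.902 and 10.25 TPM in pMo. The groups lay far apart (log2 difference 5.57, SE 0.384, limma adjusted p = 3.51e-06), which checks the sort, while its peak, 25105 bp downstream, ranked 46.1 and 47.7 in iMo and 50.1 and 73.2 in pMo. Higher in iMo were also F13a1, a transglutaminase, by 4.49, the proteoglycan gene Vcan by 4.45 and the chemokine gene Cxcl10 by 4.14. The C/EBPα gene Cebpa was higher by 2.38 and Irf2bp2, which has 8 shared distal peaks, by 1.84. Lower in iMo were Dusp16, a phosphatase of MAP kinases, at -3.44, Fabp4, a fatty acid carrier, at -3.19, and the scavenger receptor gene Cd36, with 5 shared distal peaks, at -2.57. All 8 nearest interferon-stimulated genes rose in iMo, with a median of 1.42, or 1.23 when rescaled, against 0.13 over all genes.

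Against monocytes, the macrophages had 557 nearest genes (21.1%) higher and 1169 (44.4%) lower, with 18.9% and 35.9% in all genes tested. After median-of-ratios scaling 724 (27.5%) were above and 1058 (40.2%) below, against 26.3% and 29.7% of all genes tested. Without the ribosomal entries the counts were 790 and 865, with a median of 0.0586 over all genes, whose shares were not counted in this setting. The size of the excess of lower genes thus depends on the scaling. As deposited, genes with 3 or more shared distal peaks were lower in 53.6% of cases, and no test was made of their difference from the 44.4%. Spi1, the PU.1 gene, was at 107.4 to 129.3 TPM in the 8 macrophage libraries, with a median of 119.8 TPM, and at 164.2 to 236.5 TPM in the 8 monocyte libraries, with a median of 200.2 TPM. The difference was -0.71 (SE 0.0663, limma adjusted p = 3.64e-06) without overlap, and its nearer shared distal peak, 10147 bp upstream, ranked 46.5 to 73.3 in macrophages and 6.4 to 35.1 in monocytes. The nuclear receptor gene Nr4a1 differed by -3.51, Klf2, a Krüppel-like factor, by -2.56, and the receptor gene of CSF-1, Csf1r, by -1.79. Also lower were Adgre5, an adhesion receptor, Gpr132, Sema4d and the haematopoietic factor gene Nfe2, at -3.71, -3.71, -3.20 and -3.03. Higher in macrophages were Spp1, which encodes osteopontin, by 5.73, Ear1, a ribonuclease, by 6.49 and Atp6v0d2, a proton pump subunit, by 5.10. Of 11 nearest AM genes 10 rose under both scalings. Of 24 phagocyte surface genes 19 fell and none rose as deposited, and after median-of-ratios scaling 19 fell and 4 rose.

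**Figure D5:**
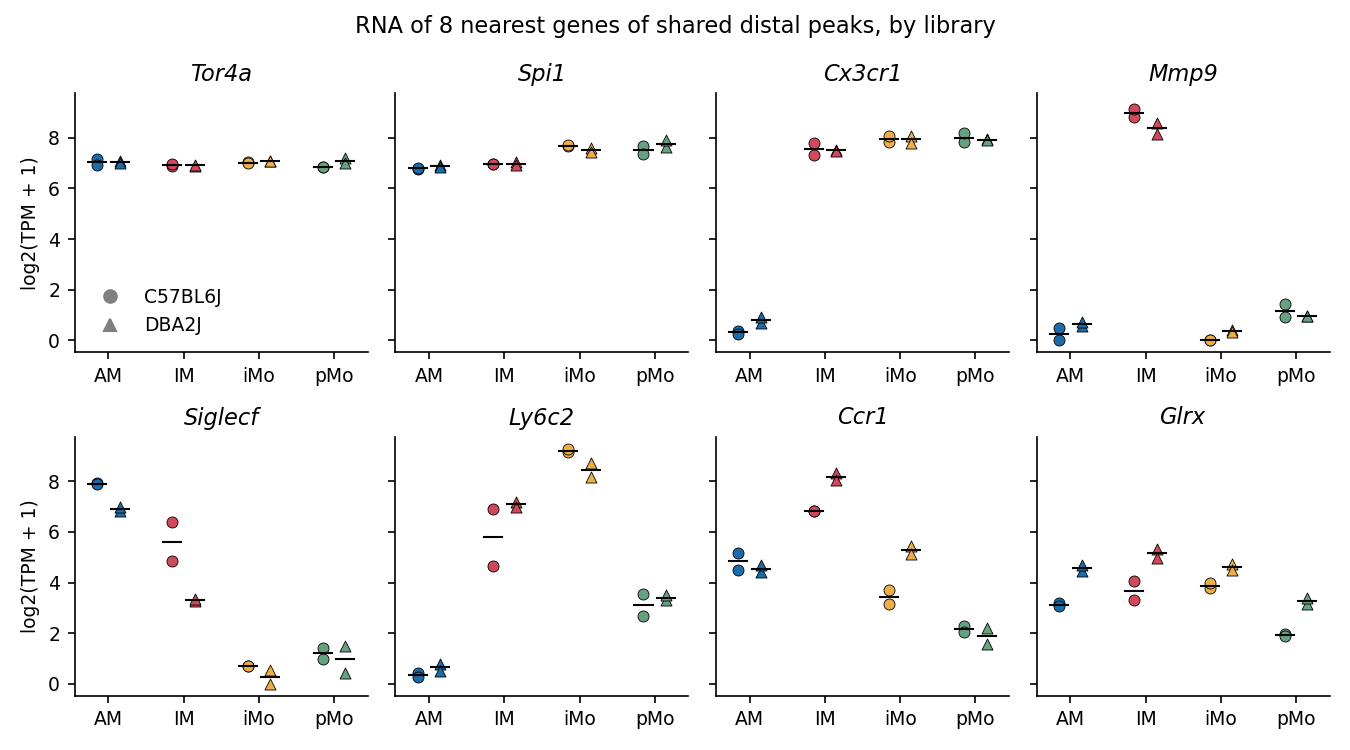
RNA of 8 nearest genes in every library on a log2(TPM + 1) axis, by cell type, with circles for C57BL6J, triangles for DBA2J and a line at each group's mean. Tor4a is level across groups, Cx3cr1 is near 0 in AM alone, and Mmp9 is high in IM alone.

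Between the strains few nearest genes differed, 130 (4.93%) higher and 209 (7.93%) lower in DBA2J, against 4.37% and 7.31% of all genes tested. After median-of-ratios scaling 282 (10.7%) were above and 225 (8.54%) below, against 7.91% and 7.78% of all genes tested. Without the ribosomal entries 224 were higher and 184 lower, and the shares of all genes were not counted in this setting. Hspa8, a constitutive heat shock protein of the HSP70 family, was at 136.3 to 419.4 TPM in the 8 C57BL6J libraries, with a median of 196.6 TPM, and at 20.15 to 109.5 TPM in the 8 DBA2J libraries, with a median of 44.84 TPM. The strains did not overlap (log2 difference -2.20, SE 0.192, limma adjusted p = 1.91e-05). Hmox1, the haem-degrading oxygenase gene, was the other gene that reached 10 TPM without overlap, and it differed by -0.65 (adjusted p = 0.000613). Of 24 nearest immediate early genes 11 were lower in DBA2J and none higher, among them Fos at -1.13 (adjusted p = 0.00354). The labels give no sorting date, so that a shared processing day and the strain cannot be told apart.

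RNA near the peaks with strain differences in rank was higher in DBA2J for Ccr1 and Glrx, with no call for Etv3. Ccr1 was at 34.91, 21.63, 112.4, 110.8, 12.03, 7.842, 3.835 and 3.126 TPM in the C57BL6J libraries of AM, IM, iMo and pMo, in pairs. In DBA2J it was at 20.15, 24.70, 319.0, 261.7, 41.95, 33.48, 3.614 and 1.965 TPM. It was higher in DBA2J in IM and iMo, and overlapped in AM and pMo. The average strain difference was 0.66 (SE 0.14, adjusted p = 0.00988), and it was 0.43 (adjusted p = 0.161) without the C57BL6J IM libraries. Glrx was at 8.13 and 7.325 TPM in AM, 8.875 and 15.49 in IM, 12.76 and 14.79 in iMo and 2.955 and 2.666 in pMo of C57BL6J. In DBA2J the pairs were 20.70 and 24.85, 38.93 and 30.68, 25.49 and 21.41, and 7.85 and 9.396 TPM, higher in every type (1.24, SE 0.117, adjusted p = 3.51e-05). Etv3, whose peak ranked lower in DBA2J, had a log2 difference of 0.10 (adjusted p = 0.606).

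Rank and RNA were set side by side for all nearest genes. Among 17 tested genes near a peak ranked higher in all DBA2J lists, 4 were higher in DBA2J, namely Ccr1, Glrx, Adora2a and Gm4759, and none was lower. Among 35 tested genes near a peak ranked lower in DBA2J 8 were lower, such as Naaa, Atp1b3 and Arhgap31, and 4 higher, such as Dennd3 and Atg7. Naming these genes followed their values. The shares among 2610 tested genes whose peaks were not separated between the strains were 4.9% higher in DBA2J and 7.78% lower. Of 1069 tested genes near a peak ranked higher in AM than in IM 12.2% were higher in AM, against 7.98% of 1065 near a peak ranked lower and 7.88% of 1244 near peaks that were not separated. In the same order 62.1%, 69.5% and 71.1% were lower in AM. All genes tested had 9.19% higher and 61.1% lower. With median-of-ratios scaling 36.5%, 28.9% and 27.0% were higher and 35.6%, 40.3% and 42.0% lower. The shares of all genes were then 33.1% and 28.8%. Between iMo and pMo 26.6% of 698 genes near a peak ranked higher in iMo were higher and 7.59% lower, against 22.0% and 14.0% of 817 near a peak ranked lower and 24.6% and 9.96% of 1747 near peaks that were not separated. For macrophages against monocytes 18.6% of 269 genes with a higher-ranked peak were higher and 51.7% lower, against 15.7% and 42.4% of 198 with a lower-ranked one. Of 2409 genes whose peaks were not separated 21.5% were higher and 44.3% lower. The shares are descriptions without a test, and 234 genes had peaks of both kinds between AM and IM.

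Rank and RNA also parted at single genes. The Arg1 peak was among the best of AM, yet Arg1 RNA was at 0.347 to 0.494 TPM in AM and at 13.85, 0.774, 2.573 and 4.013 TPM in IM, where the first C57BL6J library alone is high. Slc4a7 went with its peak, at 1.396 to 3.361 TPM in AM and 6.566 to 14.88 TPM in IM (-1.99, SE 0.244, limma adjusted p = 3.08e-05). Abcc4 too was lower in macrophages than monocytes, at -0.97 on the log2 scale (adjusted p = 8.84e-05), where its peak ranked lower. Nlrp3, with a peak ranked higher in macrophages, differed by -0.35 (adjusted p = 0.0162), a call lost with median-of-ratios scaling (adjusted p = 0.077), without the ribosomal entries (0.466) and without the C57BL6J IM (0.356). Lrrfip1 was lower in iMo, at -0.56 (adjusted p = 0.0232), which was lost in 4 of the fits without 1 library (adjusted p = 0.0693 to 0.0782).

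A strain difference that varied by cell type was called by limma's interaction test in 125 nearest genes (4.74%), against 4.03% of all genes tested. The count rested on single libraries, and was 45 without the second DBA2J AM library, 222 without the first C57BL6J IM library and 71 without both C57BL6J IM libraries. Spp1 was at 128.5 and 120.3 TPM in AM of C57BL6J and at 816.4 and 900.8 TPM in AM of DBA2J, without overlap, while in IM the strains overlapped at 70.68 to 106.9 TPM (interaction adjusted p = 0.00117). Its shared distal peak lies 77 bp from a RefSeq start and ranked 12.6 in AM of C57BL6J and 30.6 in AM of DBA2J.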

How the data were processed

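Per the labels, sorted cells were used for strand-specific sequencing of polyA RNA and for ATAC-seq, and the sort used CD45, CD11b, CD11c, CD64, F4/80, SiglecF, Ly6c and Ly6g. The authors deposited RNA levels as TPM for 24940 genes, with 1 start per gene, and 8 lists of 200 bp peaks, each from 2 libraries, with a score and a second score per peak of unstated scale. Per the submitters' processing notes the build was mm10 and the tools were Bowtie, HOMER and STAR, of unstated version and role. Depth is unknown, since the files used hold no counts. The gene length in the table equals the genomic span for 99.2% of genes, so levels were not compared between genes.

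Peaks were joined by an overlap of 1 bp in Python 3.11.15 with pandas 2.3.3 and numpy 2.4.6. The best-scored overlapping peak of each list gave a percentile within that list and a rank among the shared distal peaks. Each peak was assigned to the nearest listed start, and genes within 100 kb were described. Those averaging 1 TPM or more, 12277 of all genes, were tested in R 4.3.3 by limma 3.58.1 on log2(TPM + 1), with a mean for each of 8 groups, 8 residual degrees of freedom, a variance trend and Benjamini-Hochberg adjustment at 0.05. Log2 differences are on that scale, which understates changes of low genes. In data simulated for AM minus IM over 12277 genes, a log2 difference of 1 was recovered in 56% and one of 2 in 95.5% of 200 changed genes.

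The peaks and gene lists were chosen with earlier results of these data known. Genes named per comparison were up to 8 per direction with the largest difference, 10 TPM or more on the higher side and libraries that did not overlap, plus members of the lists, genes of the peaks shown and the peaks with the widest rank gaps, not all of which are printed. Peaks shown by sequence follow the motif choice given beside them, since the planned windows could not be read without a genome. Alternatives covered the distance, overlap and lists required, pseudocount, filter, scaling, trend, replicate number, gene assignment and leaving out each library. The limit on RefSeq starts, the second score and leaving out both C57BL6J IM libraries were added after seeing the data. Replicate numbers gave little sign of pairing the samples. Differences between the replicates of a group correlated at a median of 0.0176 over 28 pairs of groups, with 5 over 0.1 and a highest value of 0.2. Of the 12 pairs within a strain 2 were over 0.1. This check cannot tell whether cell types came from the same mice.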

Additional observations from a re-analysis of the deposited data

Results flagged for a closer look

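Among the nearest genes named in the comparisons 15 had a strain difference that differed between cell types by limma's interaction test. Spp1 (osteopontin, adjusted p = 0.00117) was higher in DBA2J in AM by 2.78 on the log2 scale, with differences of -0.06 in IM, 0.46 in iMo and -1.36 in pMo, and the call held without each of the 16 libraries in turn. C5ar1, the receptor of complement C5a (0.00256), was lower in DBA2J macrophages, at -0.72 in AM and -0.41 in IM, and higher in DBA2J monocytes, at 1.42 in iMo and 1.06 in pMo. Its call too held without each library. Fgl2 (0.0145) was higher in DBA2J macrophages, by 1.29 and 1.11, and lower in monocytes, at -0.78 and -1.27, and it stayed called in all 16 fits, with a highest adjusted p of 0.0481. Eef1a1, a translation elongation factor gene (0.00395), was higher by 1.02 in IM and lower in pMo, at -0.59, and lost its call without both C57BL6J IM libraries (adjusted p = 0.213).

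The other calls were lost in 1 or more fits that left out a library. Adgre5 (0.0108) differed by 1.87 in AM and lost its call without the second C57BL6J AM library (adjusted p = 0.0564). Cd52 (0.0108), higher in DBA2J by 0.55 in IM and lower elsewhere, lost it in 1 fit and had an adjusted p of 0.816 without both C57BL6J IM libraries. The scavenger receptor gene Stab1 (0.0111) was at 301 and 555 TPM in C57BL6J IM and at 84.6 and 100 TPM in DBA2J IM, a difference of -2.14, and had an adjusted p of 0.0626 without both C57BL6J IM libraries. Cxcr4, a receptor of CXCL12 (0.0188), differed by -1.83 in iMo and -1.79 in pMo against -0.21 in AM, with an adjusted p of 0.147 after median-of-ratios scaling. Cd74, the invariant chain gene (0.0211), differed by -1.86 in AM and at most 0.26 elsewhere, and lost its call in 5 of 16 fits. Calhm2 (0.013) lost it in 3, Gas7 (0.0205) in 5, Phlda3 (0.0211) in 6, Atp6v0d2 (0.0305) in 10, Vwf (0.0406) in 12 and Lrp1 (0.0454) in 13.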

How the results depend on the processing

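Of 212 alternatives other than leaving out 1 library, 199 gave a count within 1.5 times of that reported. The number of shared distal peaks was 3726 when the worst-scored 25% of every list was left out, and 5161 when a distance of 1 kb from every RefSeq start was added after seeing the data. With a mean of at least 5 TPM 357 nearest genes were higher in macrophages than monocytes. With median-of-ratios scaling the interaction count was 200, AM against IM 822 higher and 1003 lower, iMo against pMo 488 lower and DBA2J 282 higher. Without Rn45s and Mir6236 the interaction count was 199, AM against IM 531 higher, iMo against pMo 335 higher and 555 lower, and DBA2J 224 higher. The shares of all genes were not counted without these entries. Without both C57BL6J IM libraries, added after seeing the data, 71 interaction genes were called. Beyond the change of scale itself and the fewer genes or libraries used, the cause was not tested.

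Leaving out each library in turn gave 2236 to 2362 nearest genes that differed among cell types and 45 to 222 with an interaction. AM against IM gave 1873 to 2037, of which 220 to 269 were higher and 1641 to 1783 lower. The monocyte comparison gave 649 to 937, with 439 to 657 higher and 190 to 313 lower, and macrophages against monocytes 1592 to 1757, with 511 to 575 higher and 1064 to 1236 lower. The strain comparison gave 234 to 404, with 145 to 250 lower and 78 to 154 higher, the lowest without the second C57BL6J AM library. A lone library is assumed to vary like the other groups. Of 65 pairs of a named gene and a comparison, 61 kept direction and call in every setting, none reversed and 4 lost the call, as given beside them (Fos, Lrrfip1, Nlrp3 and Ccr1). With the replicate number as a block, which showed little sign of pairing in the check given above, 2361 nearest genes differed among cell types and 117 had an interaction. The block moved no count by over 1.5 times, and AM against IM gave 2027 and the strains 331. The shares of peaks with a CTCF or PU.1 match were not run, since no genome of the build was at hand. Depth is unknown, and only the spread of the libraries tells the precision.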
